A study of Mus musculus with 16 samples.

Results

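The genes described here are the building blocks of the T cell receptor (TCR) beta chain: every row of the count table named as a Trbv, Trbd, Trbj, Trbc1 or Trbc2 gene, 53 of 52997 rows. They comprise 35 variable (Trbv), 2 diversity (Trbd), 14 joining (Trbj) and 2 constant (Trbc) genes, chosen by name alone, and all lie on chromosome 6. RNA was sequenced from whole skeletal muscle and from sorted regulatory T cells (Tregs), which express Foxp3 and hold other immune cells in check, of B6 mice aged 6 to 8 weeks. Tg mice carried the mTreg24 TCR transgene and WT mice were the transgene-negative animals of that line. All mice used for sorting carried a Foxp3-GFP reporter, which the whole muscle labels do not list.

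There were 5 groups of Tregs with 2 libraries each: Tg muscle, WT muscle, injured Tg spleen, uninjured Tg spleen and WT spleen. Tregs were taken 3 days after muscle was injured with cardiotoxin, a snake toxin that damages muscle fibres, apart from the uninjured Tg spleen group. For WT spleen, injury is stated in the design text alone. The Tg sort kept Vβ8-positive Tregs and the WT sort kept all Tregs, so genotype and gate cannot be told apart. The whole muscle set, 3 Tg and 3 WT libraries, dates from 8 days after injury. The labels give neither the transgene's promoter nor its founder, nor the number of animals behind a library, so every p-value rests on variation among libraries that may in part be technical.

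A beta chain gene is assembled in the thymus by joining a V, a D and a J segment, and RNA splicing then attaches a constant region. The locus holds a pair of D-J-C clusters. A join to a Trbj1 segment is normally spliced to Trbc1, which lies directly downstream, and a join to a Trbj2 segment to Trbc2. A productive beta chain normally stops the other allele from completing its V join, a process called allelic exclusion, and a beta transgene is known to impose the same stop. In the older naming, Vβ8 is the family now called Trbv13, with the members Trbv13-1, Trbv13-2 and Trbv13-3.

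The joining segments that led in Tg Tregs are short enough to show whole. Capitals mark the codons for phenylalanine, glycine, any residue and glycine, the motif that closes the antigen-binding loop CDR3. Trbj2-1 is given as a neighbour whose share differed less, and Trbj1-6 and Trbj2-6 as segments in which a search of all reading frames found no such motif. All are from GENCODE M21 on GRCm38 (mm10), plus strand.
Trbj2-7: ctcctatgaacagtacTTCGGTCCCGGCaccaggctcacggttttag
Trbj1-1: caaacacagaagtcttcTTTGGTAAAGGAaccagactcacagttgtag
Trbj2-1: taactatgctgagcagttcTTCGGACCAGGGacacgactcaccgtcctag
Trbj1-6: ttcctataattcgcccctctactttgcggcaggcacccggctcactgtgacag
Trbj2-6: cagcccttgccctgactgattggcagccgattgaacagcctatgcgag
Trbj2-7 and Trbj1-1 matched at 29 of 47 aligned bases (61.7%), and no 25-base window of any Trbj segment occurred in another gene of the annotation, 25 bases being the length of a read. Trbj2-6 is annotated as a pseudogene. The search also found no such motif in Trbj1-7, which is not shown.

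The 3 Trbv13 genes are shown over the same 60-base stretch of their coding end, bases 259 to 318 of Trbv13-2, because reads must be assigned among them. Capitals mark the 19 positions at which the 3 genes are not all alike.
Trbv13-1: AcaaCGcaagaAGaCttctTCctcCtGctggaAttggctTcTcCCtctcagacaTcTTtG
Trbv13-2: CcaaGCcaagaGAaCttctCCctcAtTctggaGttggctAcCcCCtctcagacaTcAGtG
Trbv13-3: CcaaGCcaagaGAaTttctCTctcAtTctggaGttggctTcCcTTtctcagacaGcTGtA
Trbv13-2 was 88.7% identical to Trbv13-1 and 90.6% identical to Trbv13-3, and 81.6% of its 25-base windows occurred in no other gene. The constant genes were closer to interchangeable for short reads: Trbc1 and Trbc2 were 87.1% identical over 677 aligned bases, and 53.9% of Trbc1 and 50.1% of Trbc2 windows were unique. How reads that fit both were treated is not given in the sources used here, so the values of Trbc1 in particular carry this uncertainty.

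Each of the 10 Treg libraries held 1986700 to 9116800 counts, and each of the 6 whole muscle libraries 5095999 to 7075420. The labelled cell type was checked on Foxp3, Il2ra, Ctla4, Ikzf2 and Tnfrsf18, which summed to 3050 to 7700 CPM in the Treg libraries. CPM is the gene's count relative to its library's total, scaled by the trimmed mean of M-values (TMM) so that the bulk of genes lines up between libraries. Cd8a, which marks cytotoxic T cells, had 0 to 24 counts per Treg library. Cd8b1, also listed as a cytotoxic marker, averaged 11.8 CPM in Tg muscle and 24.5 CPM in WT muscle Tregs. In spleen it averaged 15.3 CPM in injured Tg, 15.45 CPM in uninjured Tg and 22.1 CPM in WT Tregs. The 4 natural killer and cytotoxic markers, Cd8b1 among them, summed to 39.4 to 141 CPM over the Treg libraries. Of 5 muscle fibre genes, Ttn was higher in Tg Tregs of both tissues, with 439 and 510 counts in Tg muscle against 148 and 215 in WT muscle. The list summed to 134 to 263 CPM in Tg and 34.5 to 78.7 CPM in WT Tregs, while Acta1, Myh4 and Ckm had at most 9 counts in any Treg library. Macrophage markers, 8 genes, summed to 19.6 to 31.4 CPM in Tg against 10.6 to 19.7 CPM in WT muscle Tregs, and to 143 to 159 CPM in injured Tg against 88.2 to 107 CPM in WT spleen Tregs. B cell markers, 7 genes with immunoglobulin genes among them, summed to 1230 to 1350 CPM in Tg and 1500 to 1750 CPM in WT muscle Tregs. In spleen they summed to 1610 to 1740 CPM in injured Tg, 1700 to 1780 CPM in uninjured Tg and 1670 to 3160 CPM in WT Tregs. Without the immunoglobulin genes, the sums were 15.3 to 21.1 CPM in Tg muscle and 27.8 to 36.3 CPM in WT muscle. In spleen they were 44.6 to 81.6, 34.4 to 50.2 and 41.4 to 79.6 CPM in the same order. The part of these transcripts in the results below was not tested.

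The transgenic Tregs carried far more transcripts of one constant region and not of the other. Trbc2 (chromosome 6, 41546730 to 41548352) rose 13-fold in muscle and 6.62-fold in spleen in the fit, while Trbc1 (chromosome 6, 41538218 to 41539881) did not pass the test in either tissue. Trbc2 had 7079 and 7667 CPM in Tg muscle Tregs, against 532 and 600 CPM in WT muscle Tregs. It had 5780 and 5843 CPM in injured and 7087 and 5339 CPM in uninjured Tg spleen Tregs, against 917 and 839 CPM in WT spleen Tregs. Every Tg library lay above every WT library. The log2 fold change was 3.70 ± 0.15 (SE) in muscle (adjusted p = 1.05e-09, edgeR) and 2.73 ± 0.14 between injured Tg and WT spleen (adjusted p = 4.56e-08).

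Trbc1 had 348 and 410 CPM in Tg muscle Tregs, against 511 and 532 CPM in WT muscle Tregs. In spleen it had 514 and 532 CPM in injured Tg, 480 and 502 CPM in uninjured Tg and 628 and 661 CPM in WT libraries. The Tg libraries were the lower ones within each tissue, without overlap, at log2 fold changes of -0.46 ± 0.12 in muscle (adjusted p = 0.194) and -0.30 ± 0.12 in spleen (adjusted p = 0.362), neither of which passed. In bulk RNA, fewer cells that use a segment and less of its RNA per cell cannot be told apart.

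**Figure D1:**
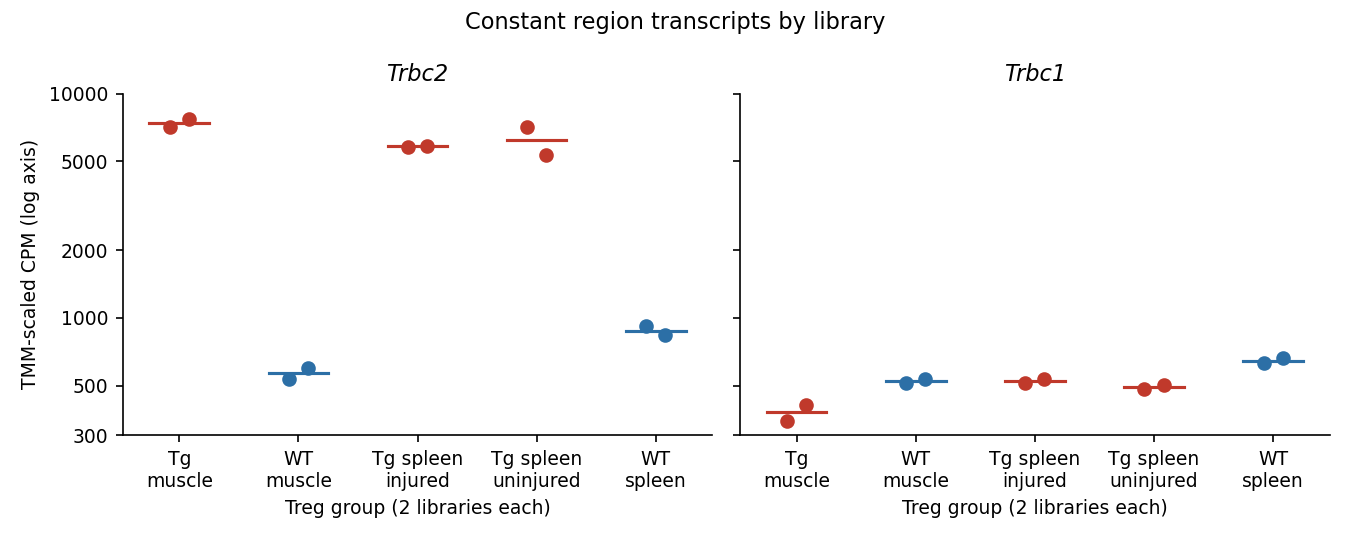
TMM-scaled CPM (log axis) of Trbc2 and Trbc1 in each Treg library, by group; points are the 2 libraries of a group and lines their means. Trbc2 lies between 5339 and 7667 CPM in the 6 Tg libraries and between 532 and 917 CPM in the 4 WT libraries, while Trbc1 stays between 348 and 661 CPM throughout.

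As a share of constant region counts, Trbc1 made up 4.69% and 5.08% in Tg muscle Tregs, against 49.0% and 47.0% in WT muscle Tregs. The shares were 8.16% and 8.35% in injured Tg spleen, 6.35% and 8.60% in uninjured Tg spleen, and 40.7% and 44.1% in WT spleen Tregs. The widest 95% Wilson interval of these shares spanned 0.8 percentage points in Tg and 3.4 points in WT libraries, counting error only. Averaged over the tissues, Trbc1 was 38.8 percentage points lower in Tg, that is -38.8 points, with 6 Tg and 4 WT libraries that did not overlap (two-sided exact permutation of genotype within tissue, p = 0.0111, the smallest that 90 relabellings allow here; adjusted p = 0.0133 over 6 measures). Within Tg, Trbc1 was also lower in muscle than in injured spleen, at 379 ± 44 CPM against 523 ± 13.3 CPM (SD, n = 2 each), a log2 fold change of -0.46 ± 0.12 (adjusted p = 0.0346). It was the 1 of 38 tested locus genes called there, where 7.38% of all tested genes were (4.83% higher and 2.55% lower). That call was lost when any of the 4 libraries was left out (adjusted p between 0.0512 and 0.3).

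Of the 53 genes, 38 passed the filter on low counts in the Treg libraries: 21 Trbv, 1 Trbd, 14 Trbj and 2 Trbc. Between Tg and WT muscle Tregs, 4 were higher and 7 lower, in a comparison in which 0.318% of all 13188 tested genes were called (0.121% higher and 0.197% lower). Between injured Tg and WT spleen Tregs, 4 were higher and 10 lower, against a background of 1.3% (0.887% higher and 0.417% lower). The 4 higher ones were Trbc2, Trbv13-2, Trbj1-1 and Trbj2-7 in each tissue, and all lower ones were Trbv genes. A fit of the 4 muscle libraries alone called 4 of the 11, Trbc2, Trbv13-2, Trbj2-7 and Trbv19. The median log2 fold change of the tested Trbv genes was -4.52 in muscle and -3.91 in spleen, or -2.87 and -3.69 with genes that had no count in Tg set at their bound, against -0.01 and 0.00 over all tested genes. The lower Trbv genes passed the filter through the WT libraries, so their number and median describe the genes tested and not all 35 Trbv genes. For the tested Trbj genes the medians were 1.37 in muscle and 0.71 in spleen.

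Among the variable genes, Trbv13-2 (chromosome 6, 41121396 to 41121832) held nearly all of the signal in Tg Tregs, 98.3% ± 0.276 per transcript length in Tg muscle (SD, n = 2). It had 4704 and 5040 CPM in Tg muscle, against 15.6 and 22.0 CPM in WT muscle Tregs. In spleen it had 3581 and 3741 CPM in injured and 4483 and 3324 CPM in uninjured Tg libraries, against 51.0 and 72.0 CPM in WT libraries. The log2 fold change was 8.00 ± 0.25 in muscle (adjusted p = 3.16e-10) and 5.88 ± 0.22 in spleen (adjusted p = 4.98e-09). Because the gate selected Vβ8 in Tg mice and not in WT mice, these differences and the lower levels of other Trbv genes cannot be separated from the sort.

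Within the family, too, the Tg libraries resembled each other. Which of the 3 members the gating antibody binds is not stated in the labels, so genotype and gate cannot be told apart here either. Trbv13-2 made up 99.4% and 99.2% of Trbv13 counts in Tg muscle, 98.5% and 98.6% in injured Tg spleen and 98.9% and 98.4% in uninjured Tg spleen. It made up 40.8% and 53.6% in WT muscle and 57.9% and 58.2% in WT spleen Tregs. The difference averaged 46.3 percentage points, with no overlap between the 6 Tg and 4 WT libraries (two-sided exact permutation p = 0.0111, adjusted p = 0.0133 over 6 measures). How far stray assignment of Trbv13-2 reads adds to its relatives in Tg was not tested.

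In absolute terms, reads assigned to the 2 relatives were still counted in Tg Tregs, where stray Trbv13-2 reads may be among them. Trbv13-3 had 55 and 103 counts in Tg muscle, against 39 and 83 in WT muscle, or 20.6 and 25.3 CPM against the 8.81 and 10.2 CPM of the WT libraries (log2 fold change 1.27 ± 0.35, adjusted p = 0.205). In spleen it was 48.1 ± 3.38 CPM in injured Tg, 37.4 ± 0.666 CPM in uninjured Tg and 26.1 ± 14.5 CPM in WT Tregs (adjusted p = 0.329 for injured Tg against WT). Trbv13-1 was 11.5 ± 5.20 CPM in Tg muscle against 11.3 ± 3.50 CPM in WT muscle (adjusted p = 0.987), and 4.98 and 8.52 CPM in injured Tg against 15.4 and 21.1 CPM in WT spleen (adjusted p = 0.214). Uninjured Tg spleen Tregs, at 14.4 ± 2.08 CPM (SD, n = 2), overlapped the WT libraries. Neither gene passed the test between genotypes.

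Variable genes outside Trbv13 gave 129 to 317 counts per Tg library, 1.01% to 1.94% of Trbv counts, against 1064 to 3464 counts and 79.7% to 91.2% in WT. Trbv19 fell to 0.987 ± 0.338 CPM in Tg muscle, against 36.7 ± 3.69 CPM in WT muscle, and to 3.61 ± 0.345 CPM in injured Tg spleen, against 47.0 ± 0.455 CPM in WT spleen (SD, n = 2 each). Its log2 fold changes were -5.12 ± 0.54 (adjusted p = 0.000185) and -3.69 ± 0.45 (adjusted p = 0.000816). Trbv2, Trbv12-1, Trbv15, Trbv17, Trbv20 and Trbv26 were likewise lower in both tissues, and Trbv4, Trbv5 and Trbv16 passed in spleen. For none of these genes did the difference between tissues pass.

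Trbv2 had 0 to 3 counts in the Tg libraries, against 61 to 120 in the WT libraries. Trbv20 had 1 to 11 counts in Tg, against 47 to 127 in WT. Trbv26 had 0 to 3 counts in Tg, against 70 to 162 in WT. None of these ranges overlapped. Some calls in muscle rested on single libraries: Trbv12-1 and Trbv2 lost theirs without Tg muscle replicate 2 (adjusted p = 0.0579 and 0.129), Trbv26 without replicate 1 (0.073) and Trbv20 without either (0.129 and 0.0597). In spleen, Trbv20 lost its call without injured Tg replicate 2 (0.0789), Trbv16 without that library or either WT library (0.0536 to 0.124), and Trbv4, Trbv5 and Trbv17 without either injured Tg library or WT spleen replicate 2 (0.0699 to 0.187). DESeq2 called neither Trbv5 (adjusted p = 0.114) nor Trbv4, for which it gave no adjusted p.

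Several of these genes had no counts at all in Tg libraries, and there a fold is a bound against a floor of 3 counts per library. Trbv15 had 0 and 0 counts in injured Tg spleen, against 76 and 182 in WT spleen, and was at least 55.1-fold lower in Tg. Trbv17 had 0 and 0 counts in Tg muscle, against 50 and 38 in WT muscle, and was at least 8.76-fold lower, a call that sat close to the threshold (adjusted p = 0.0493) and was lost without either Tg muscle library (0.211 and 0.166). Trbv12-1 had 0 and 0 counts in Tg muscle, against 43 and 151 in WT muscle, and was at least 15.1-fold lower. Trbv4 and Trbv5 had 0 counts in all 6 Tg libraries, against 12 to 55 and 17 to 63 counts in the WT libraries. Both overlap a long non-coding RNA gene, 5830405F06Rik, which holds most of their 25-base windows.

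The few counts left outside Trbv13 in Tg Tregs were not a scaled-down copy of the WT pattern. The effective number of segments, the inverse of the summed squared shares, was 1.91 to 4.68 in Tg libraries and at least 8.48 in every WT library. Of 16 segments with at least 100 counts over the Treg libraries, 9 (56.2%) differed in share at an unadjusted exact permutation p under 0.05, 8 of them lower in Tg, and for 6 (37.5%) the libraries did not overlap. Segments reached 100 counts mostly through the WT libraries, which favours lower shares in Tg, so these counts are a description. Trbv12-2, which starts upstream of Trbv13-2 and ends 2031 bases before it, was the 1 of these 9 segments with a higher share in Tg. It held 58.9% and 13.6% of these counts in Tg muscle, against 7.52% and 16.0% in WT muscle. It held 39.1% and 31.4% in injured Tg, 48.3% and 41.6% in uninjured Tg and 6.11% and 8.52% in WT spleen (exact permutation p = 0.0222, unadjusted).

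In counts, Trbv12-2 had 76 and 37 in Tg muscle, against 113 and 554 in WT muscle, and its level did not pass the test (log2 fold change -1.37 ± 0.65, adjusted p = 0.606). None of its 25-base windows occurred in Trbv13-2. Trbv1 varied most among Tg libraries, with 13 and 193 counts in Tg muscle, 74 and 79 in injured Tg spleen, and 22 and 14 in uninjured Tg spleen. Its share therefore spread from 10.1% to 70.7% in Tg, across the range of 11.9% to 25.5% in WT, and leaving Tg muscle replicate 2 aside its highest share was 45.1%. Trbv31, the variable gene in opposite orientation downstream of Trbc2, held 0.366% to 5.36% of these counts in Tg and 2.06% to 5.26% in WT, a difference that did not pass (exact permutation p = 0.433).

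**Figure D2:**
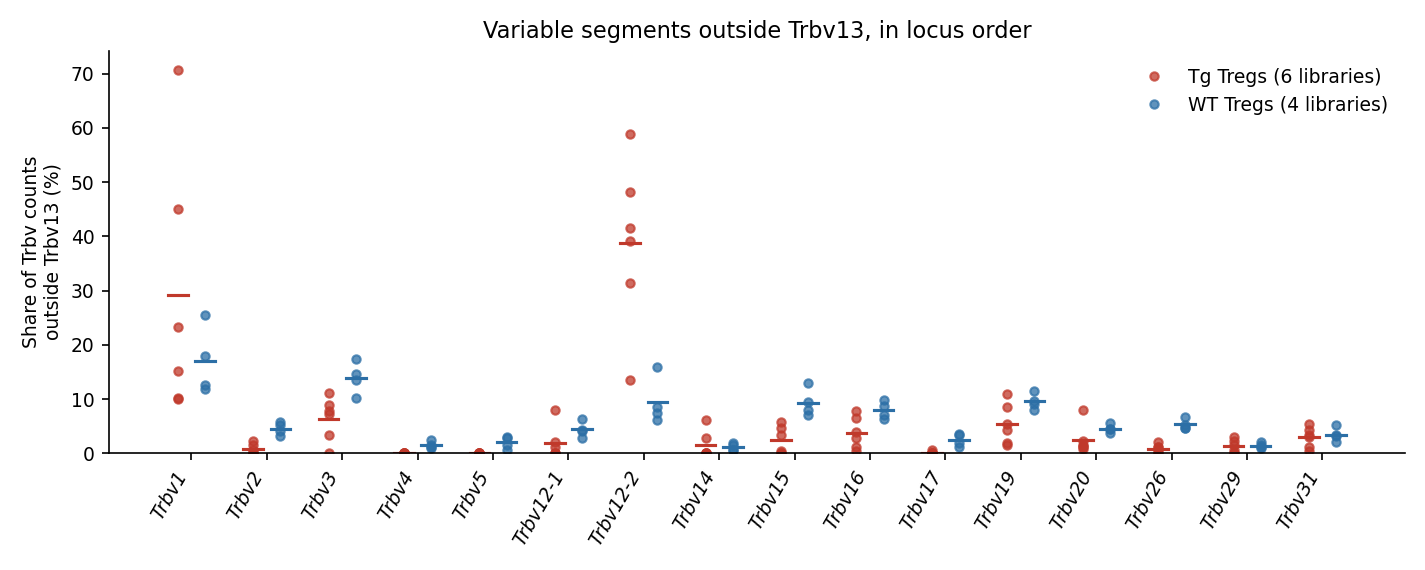
Share (%) of Trbv counts outside Trbv13 held by each of 16 segments, in locus order, in 6 Tg and 4 WT Treg libraries; points are libraries and lines group means. Trbv12-2 reaches 58.9% and Trbv1 70.7% in single Tg libraries, while the WT libraries stay at or below 25.5% for every segment.

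WT Tregs, sorted without a Vβ gate, showed how the segments were used in each tissue. Per transcript length, Trbv1 and Trbv3 were among the most used segments in each: Trbv1 held 16.4% ± 8.37 of length-scaled Trbv signal in muscle and 12.1% ± 3.61 in spleen (SD, n = 2 each). Trbv3 held 11.1% ± 4.23 in muscle and 10.2% ± 0.0495 in spleen. Trbv12-2, at 11.2% ± 5.75, and Trbv15, at 11% ± 2.51, stood beside them in muscle, and Trbv13-2, at 11.9% ± 2.64, did so in spleen. These neighbours in rank did not differ beyond their spread. At the other end, 6 Trbv genes (Trbv8, Trbv9, Trbv10, Trbv11, Trbv25 and Trbv28) had no count in any library, and all of them are annotated as pseudogenes. No 25-base window of Trbv8 was unique to it, so its reads could not be told from those of the overlapping gene AC153851.1. The 13 annotated pseudogenes together gave at most 0.737% of Trbv counts in a Treg library.

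**Figure D3:**
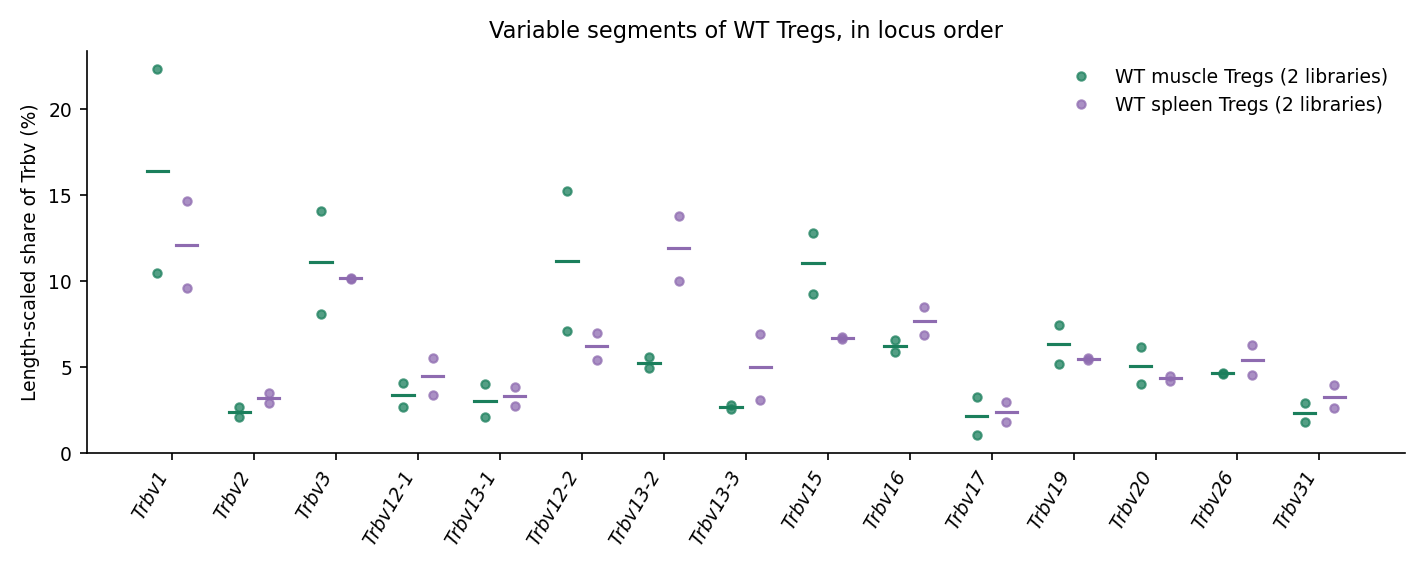
Length-scaled share (%) of Trbv signal for 15 segments, in locus order, in WT muscle and WT spleen Tregs; points are the 2 libraries of a group and lines their means. Trbv13-2 is lower in both WT muscle libraries than in both WT spleen libraries, while Trbv1, Trbv3 and Trbv12-2 differ widely between the WT muscle libraries.

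Between WT muscle and WT spleen Tregs, 4 of the 38 tested locus genes fell and none rose, where 16.2% of all tested genes were called (9.38% higher and 6.87% lower). Trbv13-2 fell to 15.6 and 22.0 CPM in WT muscle, against 51.0 and 72.0 CPM in WT spleen (log2 fold change -1.71 ± 0.21, adjusted p = 9.3e-05). Trbv13-3 was 8.81 and 10.2 CPM in WT muscle, against 15.9 and 36.3 CPM in WT spleen (-1.49 ± 0.35, adjusted p = 0.00899), a call that was lost without WT spleen replicate 2 (-0.72, adjusted p = 0.299). Trbc2 fell by 0.63 ± 0.14 on the log2 scale (adjusted p = 0.00589).

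Trbj1-6 also fell in WT muscle, to 1.84 ± 0.689 CPM against 7.08 ± 2.53 CPM in WT spleen (-1.92 ± 0.58, adjusted p = 0.0365). That call was lost without WT spleen replicate 2 (log2 fold change -1.45) and without either WT muscle library (-1.62 and -2.39). It was also lost with no filter on low counts (edgeR adjusted p = 0.0685) and in a fit of the compared groups only (0.168). Trbv counts as a whole reached 1671 and 3798 in the WT muscle libraries, against 1247 and 2887 in the shallower WT spleen libraries. Relative to library totals, without TMM scaling, Trbv was lower in WT muscle, at 361 and 417 CPM against 628 and 641 CPM in WT spleen. Beside this comparison, 8 macrophage markers summed to 10.6 to 19.7 CPM in WT muscle and 88.2 to 107 CPM in WT spleen. Adgre1, a macrophage marker, and Ms4a1, a B cell marker, were at 0 in WT muscle, and the immunoglobulin gene Igkc had 8393 counts in WT spleen replicate 2. Their part in these results was not tested.

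The response of Trbv13-2 to genotype was larger in muscle than in spleen. The difference of the Tg against WT log2 fold changes, muscle minus injured spleen, was 2.12 ± 0.27 (adjusted p = 0.00842), and Trbv13-2 was the 1 of 38 locus genes that passed, where 0.136% of all genes did (0.0531% higher and 0.0834% lower). This test was added after the data were seen. Tg muscle and injured Tg spleen, at 4872 ± 237 and 3661 ± 113 CPM, differed less (0.41 ± 0.18, adjusted p = 0.203) than the WT tissues did. The call on this difference was lost when either injured Tg spleen library was left out (adjusted p = 0.105 and 0.108).

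The diversity segments are shorter than a read, so few reads can be assigned to them. They are shown to make that plain.
Trbd1: gggacagggggc
Trbd2: gggactgggggggc
Trbd1 had 18 and 13 counts in Tg muscle, against 9 and 8 in WT muscle, and 25 and 24 counts in injured Tg spleen, against 3 and 15 in WT spleen. It did not pass in either tissue (adjusted p = 0.547 and 0.659). Trbd2 had 0 to 2 counts in every Tg library, against 3 to 12 in the WT libraries, without overlap, and was under the filter.

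Joining segments gave 380 to 910 counts per Tg and 168 to 402 counts per WT Treg library. Trbj2-7 (chromosome 6, 41543810 to 41543856) took 33.2% and 32.6% of them in Tg muscle, against 9.84% and 16.2% in WT muscle Tregs. Its share was 28.4% and 23.5% in injured Tg, 26.8% and 26.0% in uninjured Tg, and 9.52% and 12.7% in WT spleen. Tg libraries lay above WT libraries without overlap, by 17.5 percentage points on average over tissues (exact permutation p = 0.0111, unadjusted). In CPM it rose to 52.4 ± 7.44 in Tg muscle, against 5.15 ± 1.21 in WT muscle (log2 fold change 3.31 ± 0.30, adjusted p = 3.68e-05), and to 49.7 ± 2.43 in injured Tg spleen, against 9.23 ± 2.17 in WT spleen (2.39 ± 0.30, adjusted p = 0.000987).

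Trbj1-1 (chromosome 6, 41533864 to 41533911), the first segment of the other cluster, was the second segment to rise. It held 13.9% and 13.3% of Trbj counts in Tg muscle, against 4.15% and 6.27% in WT muscle. Its share was 11.1% and 12.7% in injured Tg, 16.3% and 11.9% in uninjured Tg, and 3.57% and 4.98% in WT spleen. The groups did not overlap (exact permutation p = 0.0111, unadjusted). Its level was 21.7 ± 2.64 CPM in Tg muscle against 2.07 ± 0.370 CPM in WT muscle (3.35 ± 0.44, adjusted p = 0.00167), and 23.1 ± 4.14 CPM in injured Tg against 3.55 ± 0.945 CPM in WT spleen (2.64 ± 0.44, adjusted p = 0.00588). The call in spleen was lost without WT spleen replicate 2 (adjusted p = 0.0619) and without injured Tg spleen replicate 2 (0.068).

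Of 12 Trbj segments with at least 100 counts, 5 (41.7%) differed in share at an unadjusted exact permutation p under 0.05, and for 4 (33.3%) the 6 Tg and 4 WT libraries did not overlap. Segments reached 100 counts mostly through the Tg libraries, which favours higher shares in Tg. These counts are therefore a description. Beside the 2 that rose, Trbj2-5 held 1.11% to 2.75% in Tg and 3.73% to 7.26% in WT, and the pseudogene Trbj2-6 held 1.87% to 3.42% in Tg and 5.70% to 8.93% in WT, both without overlap. Trbj1-3 was lower in Tg with overlap, at 3.61% to 7.14% against 5.94% to 10.9% in WT (exact permutation p = 0.0222). Shares are bound to sum to the whole, and as levels these 3 did not pass the test: Trbj2-5 had log2 fold changes of -0.43 ± 0.79 in muscle and 0.36 ± 0.76 in spleen, Trbj2-6 of 0.77 ± 0.69 in muscle and -0.47 ± 0.67 in spleen, and Trbj1-3 of 1.18 ± 0.54 in muscle and 0.78 ± 0.51 in spleen. The widest 95% Wilson interval of a Trbj share spanned 9.4 percentage points in Tg and 10.2 points in WT.

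Trbj2-1, the first segment of the second cluster, held 9.62% to 12.3% in Tg and 5.97% to 19.8% in WT (exact permutation p = 0.433). Trbj1-2, Trbj1-4, Trbj1-5, Trbj1-6, Trbj1-7 and Trbj2-2 overlapped between genotypes as well, with exact permutation p between 0.0556 and 0.367. Trbj2-3 and Trbj2-4 had under 100 counts and were not tested in shares. The mean share of each was lower in Tg than in WT of the same tissue, though single libraries overlapped. Trbj2-3 averaged 1.3% in Tg and 3.28% in WT muscle, and 1.5% in injured Tg and 2.36% in WT spleen. For Trbj2-4 the values were 1.07% and 3.32% in muscle, and 1.37% and 5.96% in spleen. The effective number of Trbj segments was 6.05 to 8.46 in Tg and 9.80 to 11.8 in WT libraries.

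**Figure D4:**
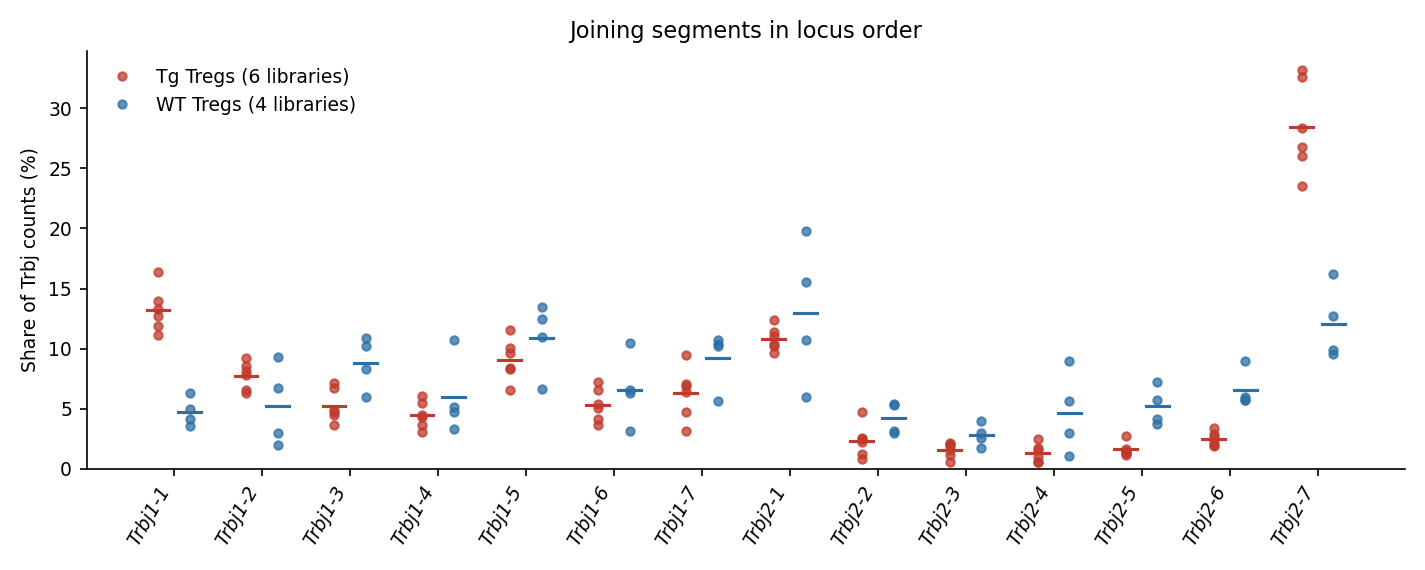
Share (%) of Trbj counts held by each of the 14 joining segments, in locus order, in 6 Tg and 4 WT Treg libraries; points are libraries and lines group means. Trbj2-7 (23.5% to 33.2% in Tg, 9.52% to 16.2% in WT) and Trbj1-1 (11.1% to 16.4% in Tg, 3.57% to 6.27% in WT) separate the genotypes upward.

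The joining clusters did not follow the constant regions. Trbj1 segments held 48.7% and 47.9% of Trbj counts in Tg muscle, against 56.5% and 36.0% in WT muscle, and 50.2% to 57.4% in Tg spleen, against 49.4% and 64.2% in WT spleen. Genotypes overlapped, and the mean difference of -0.862 percentage points did not pass (exact permutation p = 0.933, adjusted p = 0.933 over 6 measures). Set against their own constant region, Trbj1 segments gave 16.4 to 22.0 counts per 100 Trbc1 counts in Tg and 2.51 to 8.24 in WT libraries. Trbj2 segments gave 1.03 to 1.52 counts per 100 Trbc2 counts in Tg and 3.57 to 4.45 in WT libraries. Neither ratio overlapped between genotypes, and both were chosen after their values were seen and are given without a test.

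Within the second cluster, Trbj2-7 took 53.8% to 64.6% of Trbj2 counts in Tg and 18.8% to 35.4% in WT libraries. Variable genes also yielded more reads per constant region read in Tg: 0.644 and 0.637 Trbv counts per Trbc count in Tg muscle against 0.362 and 0.411 in WT muscle, and 0.584 to 0.606 in Tg spleen against 0.388 and 0.406 in WT spleen. The mean difference was 0.226 (two-sided exact permutation p = 0.0111, adjusted p = 0.0133 over 6 measures), and no Tg library overlapped a WT library.

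Between injured and uninjured Tg spleen Tregs, 0 of 38 locus genes passed edgeR's test, in a comparison where 0% of 13188 genes did. DESeq2 called 0 as well, while edgeR with no filter on low counts called Trbv15, with 0 and 0 counts in injured and 5 and 8 counts in uninjured libraries. In the filtered fit, 3 locus genes (Trbv12-1, Trbv13-1 and Trbv15) and 236 genes in all had an unadjusted p under 0.05. Trbc2 was 5811 ± 45 CPM in injured and 6213 ± 1240 CPM in uninjured libraries, and Trbv13-2 3661 ± 113 and 3903 ± 820 CPM (SD, n = 2 each). With 2 libraries a group, small differences were not detectable.

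Of 14 listed genes of the receptor complex, its signalling partners and its sister loci, 13 were tested, and 2 of these, Trac and Trdc, rose in Tg Tregs of each tissue while none fell, where 0.318% of all tested genes were called in muscle and 1.3% in spleen. Trac, the alpha chain constant region, averaged 3145 ± 411 CPM in Tg and 1042 ± 180 CPM in WT muscle Tregs (SD, n = 2 each), and 1183 ± 61.1 CPM in injured Tg and 620 ± 15.8 CPM in WT spleen Tregs. It had a log2 fold change of 1.59 ± 0.15 in muscle (adjusted p = 6.91e-05) and 0.93 ± 0.15 in spleen (adjusted p = 0.00521). Trdc, the delta chain constant region that lies inside the alpha locus, averaged 115 ± 19.9 CPM in Tg and 3.58 ± 3.78 CPM in WT muscle Tregs (4.83 ± 0.66, adjusted p = 0.0359), and 79.0 ± 44.1 CPM in injured Tg and 3.93 ± 0.116 CPM in WT spleen Tregs (4.31 ± 0.71, adjusted p = 0.0335). The CD3 subunits, which carry the receptor's signal, did not pass in either tissue, Cd3e for example with -0.02 ± 0.12 in muscle (adjusted p = 0.979). Of 11 genes flanking or embedded in the locus, such as the trypsinogens Prss1 and Prss2, 3 were tested and none passed in either tissue, against the same 0.318% and 1.3%. Rag1, Rag2 and Ptcra, which work while a beta chain is being assembled and first tested in the thymus, had 0 to 3 counts in every Treg library, and Dntt, which adds bases at the joins, had 0 to 4.

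Whole muscle held few receptor transcripts, yet the genotypes were distinct. Trbc2 had 46, 47 and 45 counts in the Tg libraries, against 0, 0 and 0 in the WT libraries, at least 14.4-fold higher in Tg against a floor of 3 counts per library (edgeR adjusted p = 0.00273). Trbv13-2 had 29, 25 and 29 counts in Tg, against 0, 0 and 0 in WT, at least 8.68-fold higher (adjusted p = 0.0448). They were the 2 locus genes that passed the filter on low counts, which they did through the Tg libraries alone, so that both were called is no separate result (0.0323% of 12377 genes were called). An exact permutation test of 3 against 3 libraries cannot go below p = 0.1, which it reached for each.

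Trbv13-2 lost its call when any of the 6 whole muscle libraries was left out (adjusted p between 0.112 and 0.593). Trbc2 had adjusted p between 0.0117 and 0.0438 in these fits. Trbc1 had 0, 0 and 0 counts in Tg and 0, 4 and 0 in WT whole muscle. All other locus genes together gave 1 to 5 counts per library. Trac, at 477, 464 and 365 counts in Tg against 4, 0 and 1 in WT, was separated in the same way (adjusted p = 2.31e-08). Other T cell transcripts overlapped between the genotypes: Cd3e had 24, 20 and 8 counts in Tg and 4, 24 and 12 in WT, Cd4 had 7, 0 and 6 against 0, 7 and 3, and Foxp3 had 0, 10 and 0 against 4, 0 and 0. Cd3g, with 5, 0 and 5 counts in Tg, had none in WT. At this depth, such low counts do not show whether the number of T cells differed.

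**Figure D5:**
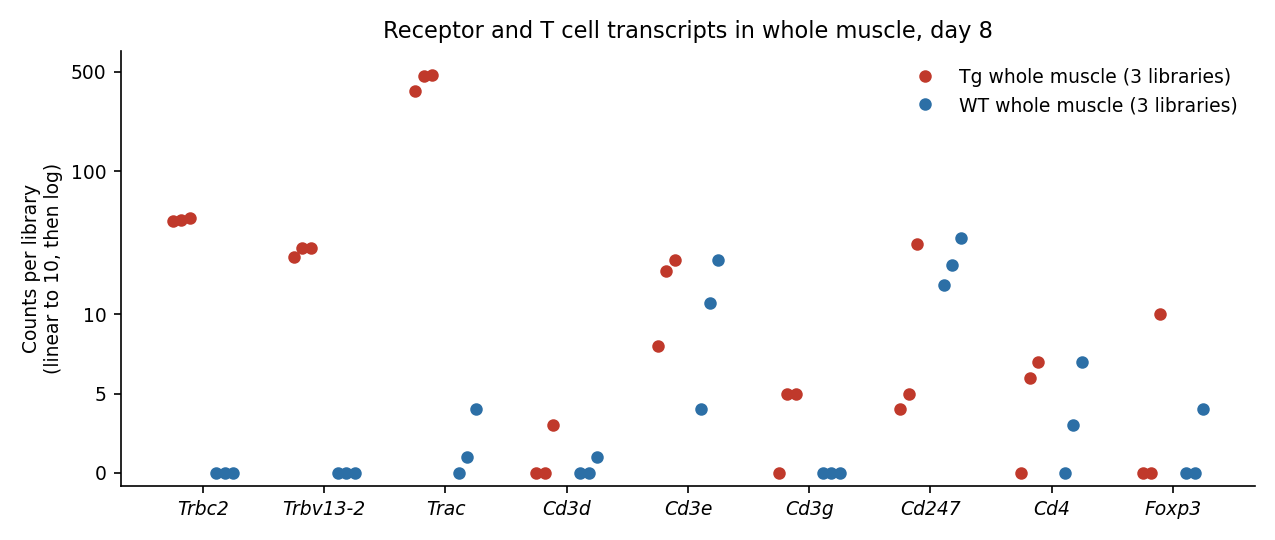
Counts per library (linear up to 10, log above) of 9 receptor and T cell genes in whole muscle 8 days after injury, 3 Tg and 3 WT libraries; each point is a library. Trbc2 (45 to 47), Trbv13-2 (25 to 29) and Trac (365 to 477) lie above 10 in every Tg library and at 4 or below in every WT library, while Cd3e, Cd247 and Cd4 overlap.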

How the data were processed

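The deposited table holds raw counts per gene, made by the authors with STAR 2.5.4, featureCounts and the mm10 build, per the submitters' processing notes. The library kit, per the labels' protocols, amplifies oligo(dT)-primed RNA, cuts it with a transposon and does not mark strand, and was read as paired 25-base reads. The sources used here do not give the annotation, the strand setting or the treatment of multi-mapping reads. The labels' protocol and the design text differ on the number of sorted cells, so none is used. The 53 members and all lists were chosen with earlier results of these data known.

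Counts were tested with edgeR 4.0.16 in R 4.3.3: filterByExpr, TMM scaling, robust glmQLFit and glmQLFTest, with Benjamini-Hochberg adjustment over all genes tested and a threshold of 0.05. The 10 Treg libraries shared 1 fit of 5 groups, so the spread comes from all of them, and the 6 whole muscle libraries had their own. Standard errors of log2 fold changes were approximated from the test statistic. Shares of Trbv, Trbj and Trbc counts were compared by two-sided exact permutation of genotype within tissue (scipy 1.17.1) and adjusted over 6 measures; the planned adjustment over segments is not given, since the members were chosen with results known, nor is a p for the effective numbers of segments. Length-scaled shares divide counts by annotated exon length. Sequences, coordinates and 25-base windows come from GENCODE M21. Trbc1, Trbc2, all Trbd and Trbj genes, the Trbv13 genes, Trbv1, Trbv31 and Trbv genes with a mean share of at least 2% in a Treg group were named; Trbv4, Trbv5 and genes with no counts were named after their values were seen. Both test scripts were tested on simulated data. No library was counted as a duplicate: within a group the chi-square over genes was at least 5.47 times its degrees of freedom. The floor for a 0 was 3 counts, 0.329 CPM in the deepest and 1.51 CPM in the shallowest Treg library, and intervals and floors cover counting error only. Alternatives were RLE scaling, library sizes without receptor genes, no filter or a 5 CPM filter, DESeq2 1.42.0, a replicate block, fits of the compared groups only, and leaving out each library.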

Additional observations from a re-analysis of the deposited data

Results flagged for a closer look

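Trbv13-2 differed in its response to genotype between tissues by an interaction test added after the data were seen: the log2 fold change of Tg over WT was 2.12 ± 0.27 (SE) larger in muscle than in spleen (edgeR, adjusted p = 0.00842). It was 8.00 ± 0.25 between Tg and WT muscle Tregs and 5.88 ± 0.22 between injured Tg and WT spleen Tregs. All 4 Tg libraries of this comparison lay above all 4 WT libraries. Trbv13-2 averaged 4872 CPM in Tg muscle and 3661 CPM in injured Tg spleen, against 18.8 CPM in WT muscle and 61.5 CPM in WT spleen. The call on the difference was lost without either injured Tg spleen library, where the difference was 2.08 without replicate 1 and 2.14 without replicate 2. The Tg mice were gated on Vβ8 and the WT mice were not, in both tissues, and the part of the gate in this difference was not tested.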

How the results depend on the processing

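No setting changed the direction of a called gene: 33 calls on locus genes were recomputed 367 times, of which 313 stayed past the threshold and 54 did not. For locus genes called between Tg and WT muscle Tregs (11), no low-count filter gave 18, a fit of the compared groups only gave 4, and leaving out a library gave 8 to 16. Leaving out a library gave 9 to 13 between injured Tg and WT spleen (14), 9 without WT replicate 2 or injured Tg replicate 2, and 2 to 7 between WT muscle and WT spleen (4), 7 without muscle replicate 1 and 2 without spleen replicate 2. A fit of these compared groups only gave 2. Between Tg muscle and injured Tg spleen (1, Trbc1), no filter and a fit of the compared groups gave 4 each, and DESeq2 gave 2. Trbc1 kept its call in no fit that left out a library, at log2 fold changes of -0.59 to -0.35. Between injured and uninjured Tg spleen (0), no filter gave 1. For the difference between tissues (1), no filter and DESeq2 gave 2 each, and leaving out a library 0 to 2. In whole muscle (2), a 5 CPM filter gave 1, and leaving out any library gave 1. The cause of these shifts was not tested. Settings in which a called gene was filtered out or got no adjusted p are not among the 367 recomputations. Trbv13-2 in whole muscle at the 5 CPM filter and Trbv4 in spleen with DESeq2 are examples.

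Replicate numbers did not pair the Treg libraries (correlations of deviations from -0.042 to 0.094) or the whole muscle libraries. With a replicate block, 10 locus genes were called in muscle, 14 in spleen, 4 between WT tissues, 1 between Tg tissues, 0 for injury, 1 for the difference between tissues and 0 in whole muscle, where Trbc2 had an adjusted p of 0.06 and Trbv13-2 of 0.37.

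Without the uninjured Tg spleen group, no exact test of the measures can go below 0.0556, and the differences were -38.6 points (Trbc1 share), 46.3 points (Trbv13-2 share), 0.226 (Trbv per Trbc), -3.77 (effective Trbj) and -7.12 (effective Trbv). Leaving out a library gave -39.7 to -38.0, 43.1 to 49.5, 0.213 to 0.238, -4.0 to -3.74 and -7.36 to -6.7 in that order. The Trbj1 cluster share ran from -5.99 to 4.26 points, reversed without WT muscle replicate 1 (4.26) and WT spleen replicate 2 (2.83). With at least 500 counts, 2 Trbj and 4 Trbv segments differed at an unadjusted exact p under 0.05. Whole muscle shares were not run, since WT libraries held 0 to 4 constant region counts. Depth limits the shares of Trbv segments outside Trbv13 in Tg (129 to 317 counts per library) and of joining segments in WT (168 to 402).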
